A study of Mus musculus with 22 samples.

Results

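Thbd, Esm1, Eng, Kdr, Flt1, Tek, Tie1, Cdh5, Sox17 and Vegfa, 10 genes of endothelial activation and vessel growth, were followed in mouse spinal cord after contusion injury. They make up 10 of the 19087 genes that the arrays name and 49 of their 43379 features, a feature being an array spot with its own probe. The set was chosen by the readout, since Thbd and Esm1 are among the largest increases in the transgenic mice at 6 weeks. The other genes were added for their vascular roles, with earlier results of these data known. For that reason the genotype difference at 6 weeks is given below as a description for all 10 genes. It carries no p-value, and nothing is read from its counts of calls. Thbd and Esm1 are given no p-value in any comparison that uses 6-week mice. A count of calls there that includes them is not read as a test of them.

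The mice were adult C57BL/6 females of 3 to 4 months. IκBα-dn mice (TG in the sample labels) carry a truncated IκBα that acts as a dominant negative on NF-κB, driven by the GFAP promoter and therefore directed to astrocytes, and none of the genes described here was itself altered. WT littermates were the controls, and either genotype was sampled uninjured (naïve) and on 3 occasions after injury, 3 days, 3 weeks or 6 weeks later. For injured mice the authors name ketamine and xylazine, a laminectomy, and Ringer's solution and gentamicin after surgery. No surgery, Ringer's solution or gentamicin is named for naïve mice. RNA came from a whole block of cord around the lesion, so fewer cells of a type and less RNA per cell cannot be told apart. Each 2-colour array set 1 mouse against another, and every value below is a log2 ratio from which the fitted dye effect was removed, 1 unit standing for a 2-fold difference.

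Endothelial cells line all vessels of the cord, and in nervous tissue they are sealed by junctions and wrapped by pericytes and astrocyte end-feet. VEGF-A, secreted by glia and other cells under low oxygen, binds the receptor encoded by Kdr, which drives sprouting and permeability, while the receptor encoded by Flt1 binds the same ligand tightly and acts largely as a trap. Angiopoietins act through Tek (TIE2) with its partner Tie1 to keep vessels quiescent, endoglin (Eng) is a co-receptor for BMP9 and TGF-β, and Sox17 is a transcription factor of arterial endothelium. Cdh5 encodes VE-cadherin, the adhesion molecule of endothelial junctions. Thrombomodulin (Thbd) on the vessel wall turns thrombin towards protein C activation, and Esm1 (endocan), a secreted proteoglycan, is a marker of endothelial tip cells.

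Of 22 arrays, 21 were used, with 23 mice in 8 groups of 3, apart from WT at 3 weeks with 2. The remaining array was not used in the fit, as its labels name 2 different time points for its Cy3 mouse. Both genotypes met directly on 10 arrays (3 naïve, 2 of 3 days, 2 of 3 weeks, 3 of 6 weeks), and 5 arrays within WT and 6 within IκBα-dn mice joined the time points. The standard deviation of log2 ratios over all features was between 0.37 and 0.74 per array, and the dye effect passed the threshold at 58.6% of features. Of the 23 mice, 4 were on 1 array and 19 on 2, and the labels do not say whether replicate mice differed in litter or day. On the arrays that joined injured with naïve mice, 16 or 17 of 17 microglia and macrophage genes were higher in the injured mouse, whichever dye it carried.

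Naïve WT mouse 2 and an array of 6 weeks stood apart, and both touch the results below. Ratios over naïve WT mouse 2 were low on both of its arrays, at -2.40 and -0.59 for Thbd, -1.91 and -0.66 for Esm1 and -1.51 and -1.17 for Cdh5. The array of IκBα-dn mouse 3 over WT mouse 1 at 6 weeks read lower for the same genes than the other 6-week arrays. That ratio alone does not tell a low IκBα-dn mouse 3 from a high WT mouse 1, and which it was was not tested. The 6-week and 3-day values touched most are given with and without naïve WT mouse 2 or 6-week IκBα-dn mouse 3. Fits without 6-week WT mouse 1 enter only the ranges and counts over mice left out in turn.

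Of the 10 genes, Thbd, Esm1 and Cdh5 had the largest genotype differences at 6 weeks. The log2 ratio of IκBα-dn over WT for Thbd was 3.71 on the array of IκBα-dn mouse 1 over WT mouse 3, 2.91 for mouse 2 over mouse 2 and 0.64 for mouse 3 over mouse 1. All 3 ratios were above 0, and the third was far below the other two. The fitted difference was 2.44 ± 0.55 (SE, 3 mice against 3), which is 5.43-fold, and it ranked 2 of 19087 genes from the highest. For Esm1 the same 3 arrays gave 2.60, 2.86 and 0.83, with a fitted difference of 2.16 ± 0.49, 4.48-fold, ranking 6. Cdh5 gave 2.36, 2.22 and 0.40, with a fitted difference of 1.74 ± 0.38, 3.35-fold, ranking 14. Without IκBα-dn mouse 3 the differences of Thbd, Esm1 and Cdh5 were 3.24 ± 0.51, 2.83 ± 0.44 and 2.34 ± 0.34. Without naïve WT mouse 2 they were 2.52 ± 0.47, 2.23 ± 0.44 and 1.80 ± 0.32. Other mice lowered them when left out. With each of 23 mice left out in turn, Thbd ranged from 1.90 to 3.24, Esm1 from 1.72 to 2.83 and Cdh5 from 1.41 to 2.34.

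**Figure D1:**
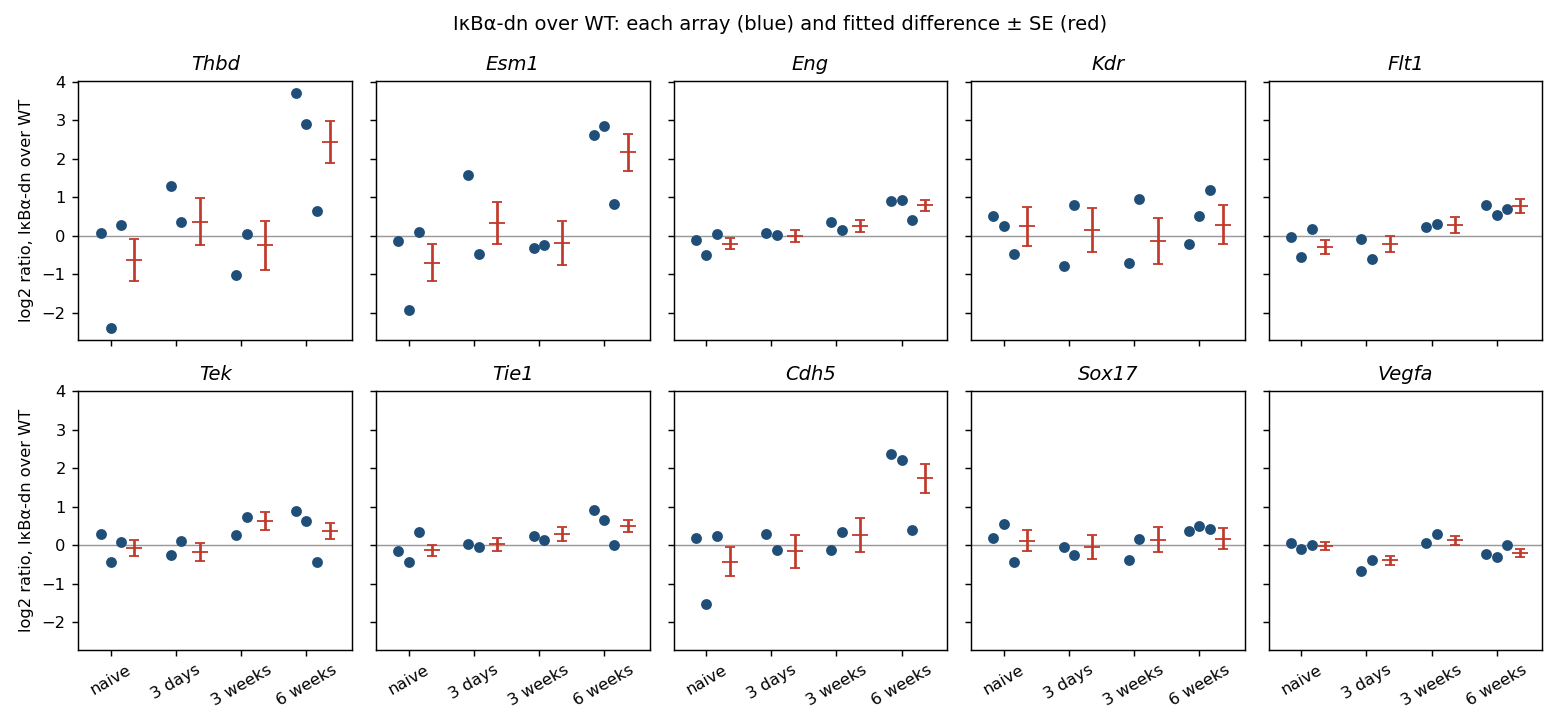
Log2 ratio of IκBα-dn over WT mice for each of the 10 genes at each time, for every array that compared the genotypes directly (blue points) and as fitted over all 21 arrays (red, ± SE). At 6 weeks Thbd, Esm1 and Cdh5 lie above 0 on all 3 arrays, with the third array (0.64, 0.83 and 0.40) well below the others; among naïve mice 1 of 3 arrays lies low for the same genes.

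Eng was 0.91, 0.93 and 0.41 on the 3 arrays, with a fitted difference of 0.79 ± 0.13 and the smallest standard error among the genes that were higher. Flt1 read 0.79, 0.53 and 0.69, and its fitted difference was 0.79 ± 0.18. Tie1 read 0.92, 0.66 and 0.02, and Tek 0.89, 0.63 and -0.44, and the third array, of mouse 3 over mouse 1, was again the lowest for either gene. Their fitted differences were 0.49 ± 0.16 and 0.37 ± 0.20. Without IκBα-dn mouse 3 the differences were 0.68 ± 0.17 for Tie1, 0.73 ± 0.17 for Tek, 0.95 ± 0.15 for Eng and 0.82 ± 0.23 for Flt1. Sox17 differed by 0.18 ± 0.27 and Kdr, on the feature that stands for it by number, by 0.29 ± 0.51. Vegfa was the one gene of the 10 below 0, at -0.20 ± 0.10, with single arrays at -0.24, -0.29 and 0.01. Thbd, Esm1, Eng, Flt1, Tie1 and Cdh5, 6 of the 10 genes, were higher at an adjusted p under 0.05 and none lower, where 7.74% of all features were called higher and 11.9% lower; the rule that chose the set used this contrast, and nothing is read from that count. Without IκBα-dn mouse 1 or WT mouse 2 of 6 weeks, 2 genes were called in place of 6. Over the 10 genes the median difference was 0.64, against 0.05 for all genes. Because the set was chosen on this contrast, nothing is read from that median either.

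The features of a gene did not all give the same value, most of all for Kdr. Its 10 features of the RefSeq mRNA gave differences between 0.78 and 1.03 at 6 weeks, and the 10 features of a cDNA clone (AK054510) gave -0.01 to 0.29. On the 3 arrays the mean of the mRNA features was 1.33, 0.96 and 0.41, the order seen for Cdh5, while the mean of the clone features was -0.17, 0.38 and 0.42. Within an array the mRNA features agreed closely, with a median standard deviation of 0.11, against 0.45 for the clone features. The feature that stands for Kdr by its number is a clone feature, so the low value of the gene above belongs to that clone. Averaged over the mRNA features, a choice made after the values were seen, the difference of Kdr was 0.95 ± 0.19.

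Flt1 split in a like way. Both mRNA features gave 0.79 ± 0.18 and 1.00 ± 0.16 and a cDNA clone feature gave 1.06 ± 0.22, but 2 other clone features gave 0.12 ± 0.29 and -0.36 ± 0.28. The 2 mRNA features of Cdh5 gave 1.74 ± 0.38 and 0.45 ± 0.29, the second with 1.09, 1.01 and -0.91 on the 3 arrays, so the size of the Cdh5 difference depends on the probe. Sox17 had 1 feature of 4 at 0.92 ± 0.28 and the others at 0.19, 0.18 and -0.26. Both Tek features were alike at 0.37 and 0.28, and all 12 Vegfa features fell between -0.33 and -0.08. Thbd, Esm1, Eng and Tie1 had 1 feature each, and which transcripts each probe detects was not tested.

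**Figure D2:**
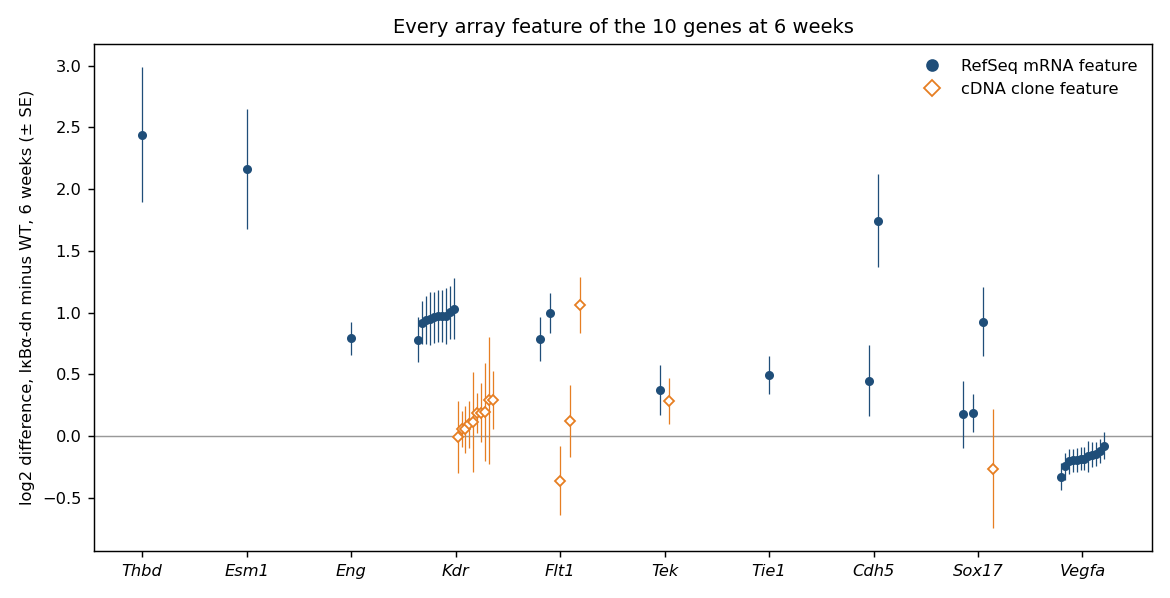
Fitted log2 difference of IκBα-dn minus WT at 6 weeks (± SE) for each of the 49 features, filled circles for features of a RefSeq mRNA and open diamonds for features of a cDNA clone. The mRNA features of Kdr lie between 0.78 and 1.03 and its clone features between -0.01 and 0.29, and the Cdh5 features stand at 1.74 and 0.45.

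The promoters of the receptor genes are shown because endothelial genes share control by ETS factors, whose sites carry a GGAA core, and because the transgene acts on NF-κB. Of the 10 genes, 7 have an entry in the RefSeq promoter table (build GRCm38.p6), Thbd, Cdh5 and Sox17 being those not matched, and 250 bases before each start were searched on both strands. The motif AGGAAG was found in 3 of the 7 genes, Eng, Flt1 and Tie1, and in 29.5% of all 32851 windows in the table. The NF-κB consensus, searched by its name and overlapping none of the AGGAAG matches below, was found in 3 genes, Kdr, Flt1 and Vegfa, and in 3.90% of all windows. ACGTG, the core bound by hypoxia-inducible factors, was found for Vegfa alone of the 7 (16.6% of all windows), TATAAA for Flt1 alone (12.4%), and TGANTCA for none (6.75%). Vegfa has 2 windows, from 2 listed starts. The NF-κB match is in window 1, and the ACGTG match is only in window 2, which lies downstream of window 1. Below are the windows of the 3 genes with an AGGAAG match and of Esm1, which held none of the 5 motifs, each on the strand of its gene and with matches of AGGAAG on either strand in capitals. Their positions are chr2:32646345-32646594 (plus strand) for Eng, chr5:147726012-147726261 (minus) for Flt1, chr4:118489850-118490099 (minus) for Tie1 and chr13:113209409-113209658 (plus) for Esm1.
Eng: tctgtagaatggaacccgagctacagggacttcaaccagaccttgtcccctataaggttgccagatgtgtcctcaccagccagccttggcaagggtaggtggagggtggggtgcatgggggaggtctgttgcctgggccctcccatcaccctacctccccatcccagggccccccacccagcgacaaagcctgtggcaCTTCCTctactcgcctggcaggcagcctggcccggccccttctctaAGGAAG
Flt1: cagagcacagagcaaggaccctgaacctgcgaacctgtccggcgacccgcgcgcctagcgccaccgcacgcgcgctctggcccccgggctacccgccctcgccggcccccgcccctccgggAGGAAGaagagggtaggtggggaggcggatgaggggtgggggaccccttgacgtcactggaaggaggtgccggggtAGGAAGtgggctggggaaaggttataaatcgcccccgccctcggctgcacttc
Tie1: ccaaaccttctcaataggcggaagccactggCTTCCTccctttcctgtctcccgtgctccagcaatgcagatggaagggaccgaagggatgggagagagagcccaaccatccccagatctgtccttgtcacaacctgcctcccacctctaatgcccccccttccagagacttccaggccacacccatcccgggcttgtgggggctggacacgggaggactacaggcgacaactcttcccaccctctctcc
Esm1: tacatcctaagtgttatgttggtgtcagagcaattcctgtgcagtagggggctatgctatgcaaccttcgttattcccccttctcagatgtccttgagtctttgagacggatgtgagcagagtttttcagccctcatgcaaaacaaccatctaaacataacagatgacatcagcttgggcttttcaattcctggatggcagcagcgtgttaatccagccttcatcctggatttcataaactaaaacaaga
The Esm1 window lacks AGGAAG, though it holds the shorter GGAA core on the other strand, and matches are descriptions of sequence and not of binding.

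Before 6 weeks no gene of the set passed the test between the genotypes. In naïve mice 0 of 10 genes passed the threshold, as did 0% of all features (limma, Benjamini-Hochberg over 43379 features; 0 genes and 1162 features at an unadjusted p under 0.05). The largest naïve difference was that of Esm1 at -0.69 ± 0.48, from arrays at -0.14, -1.91 and 0.10, followed by Thbd at -0.62 ± 0.54, from 0.08, -2.40 and 0.27, and Cdh5 at -0.42 ± 0.37, from 0.18, -1.51 and 0.24. For all 3 genes the array of naïve WT mouse 2 was the lowest by far, and without that mouse the fitted values were -0.03 ± 0.51, 0.19 ± 0.55 and 0.15 ± 0.37. Eng followed the same array in smaller steps, at -0.10, -0.50 and 0.05.

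At 3 days 0 of 10 genes and 0% of features were called (1 gene and 2949 features at an unadjusted p under 0.05). Thbd read 1.28 and 0.35 on the 2 arrays, with a fitted difference of 0.36 ± 0.60 (adjusted p = 0.99, limma), and Esm1 read 1.58 and -0.47. The gene below 0.05 without adjustment was Vegfa, at -0.67 and -0.39 on the arrays and -0.39 ± 0.11 in the fit (95% interval -0.63 to -0.16), with an adjusted p of 0.56 in limma. All 12 Vegfa features were lower in IκBα-dn mice, between -0.30 and -0.46, and all 12 had an unadjusted p under 0.05. These features carry the same mRNA name and share the RNA of the same mice, so they measure 1 difference and not 12.

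At 3 weeks 0 of 10 genes and 0% of features were called (1 gene and 941 features at an unadjusted p under 0.05), with 2 WT mice. Tek had the largest difference, 0.26 and 0.74 on the arrays and 0.63 ± 0.24 in the fit (95% interval 0.13 to 1.14). Its adjusted p was 1.00 in limma. The receptors Flt1, Tie1 and Eng stood at 0.27 ± 0.21, 0.30 ± 0.18 and 0.26 ± 0.16, while Thbd (-1.02 and 0.04) and Esm1 (-0.32 and -0.24) were not raised on these arrays. The intervals of the genotype difference at this time were wide for Thbd, with an SE of 0.64, and narrow for Vegfa, 0.13 ± 0.12.

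In WT mice no gene of the set passed the test against naïve mice at any time. At 3 days 0 of 10 genes were called against 1.89% of all features (2 genes at an unadjusted p under 0.05, limma). The array of WT mouse 1 at 3 days over naïve mouse 1 read 2.20 for Esm1, 1.75 for Thbd and 1.06 for Cdh5, and the fitted differences were 1.29 ± 0.56 (adjusted p = 0.27), 0.81 ± 0.62 (adjusted p = 0.61) and 0.50 ± 0.43 (adjusted p = 0.66). Without naïve WT mouse 2 they were 1.81 ± 0.54, 1.42 ± 0.59 and 0.97 ± 0.39, the lowest adjusted p of the 3 being 0.099 for Esm1. Without that mouse and 6-week IκBα-dn mouse 3 together, a choice made after the data were seen, 2 genes were called, Esm1 at 1.82 ± 0.37 (adjusted p = 0.041) and Cdh5 at 1.03 ± 0.22 (adjusted p = 0.045). At 3 weeks 0 of 10 genes were called against 1.03% of features (1 gene at an unadjusted p under 0.05) and at 6 weeks 0 of 10 against 0.722% (1 gene).

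The exception in WT mice was at the level of single Vegfa features. Vegfa was -0.47 on the array of WT at 3 weeks over naïve and -0.41 on that of WT at 6 weeks over naïve, both below 0. The fitted differences from naïve were -0.07 ± 0.11 at 3 days, -0.40 ± 0.13 at 3 weeks (adjusted p = 0.20) and -0.45 ± 0.12 at 6 weeks (adjusted p = 0.11). Of its 12 features 2 were called lower at 3 weeks and 6 at 6 weeks, when they lay between -0.65 and -0.42. With the mean of all 12 features in place of 1, Vegfa was called lower in WT mice at 6 weeks.

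In IκBα-dn mice at 3 days, 2 of the 10 genes were higher and 1 was lower than in naïve mice, where 5.08% of all features were called higher and 1.22% lower. Esm1 rose by 2.32 ± 0.57 (4.99-fold, adjusted p = 0.023, limma), with 2.75 on the array of mouse 1 over naïve mouse 1, the one array that joined these groups directly. Eng rose by 0.57 ± 0.16 (1.48-fold, adjusted p = 0.043) with 0.32 on that array, and Vegfa fell by 0.45 ± 0.12 (1.36-fold, adjusted p = 0.033) with -0.47. Thbd was 1.56 on that array and 1.79 ± 0.64 in the fit (adjusted p = 0.12). Without naïve WT mouse 2 and 6-week IκBα-dn mouse 3 together Thbd was called too, at 1.72 ± 0.36 (adjusted p = 0.018). Vegfa was then not called, at -0.45 ± 0.12 (adjusted p = 0.056). These calls are near the threshold. With each of 23 mice left out in turn, Esm1 lost its call in 8 fits, Eng in 18 and Vegfa in 15, and with terms for the replicate number of the mice none of the 3 was called, the differences being 2.44 for Esm1, 0.55 for Eng and -0.41 for Vegfa.

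At 3 weeks in IκBα-dn mice 0 of 10 genes were called against 0.62% of features (2 genes at an unadjusted p under 0.05). The array of 3-week mouse 2 over 3-day mouse 2 read -1.85 for Esm1 and -1.50 for Thbd, and the fitted differences from naïve had come down to 0.88 ± 0.57 and 0.67 ± 0.64. Eng stood at 0.41 ± 0.16 (adjusted p = 0.37) and Vegfa at -0.25 ± 0.12 (adjusted p = 0.50).

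**Figure D3:**
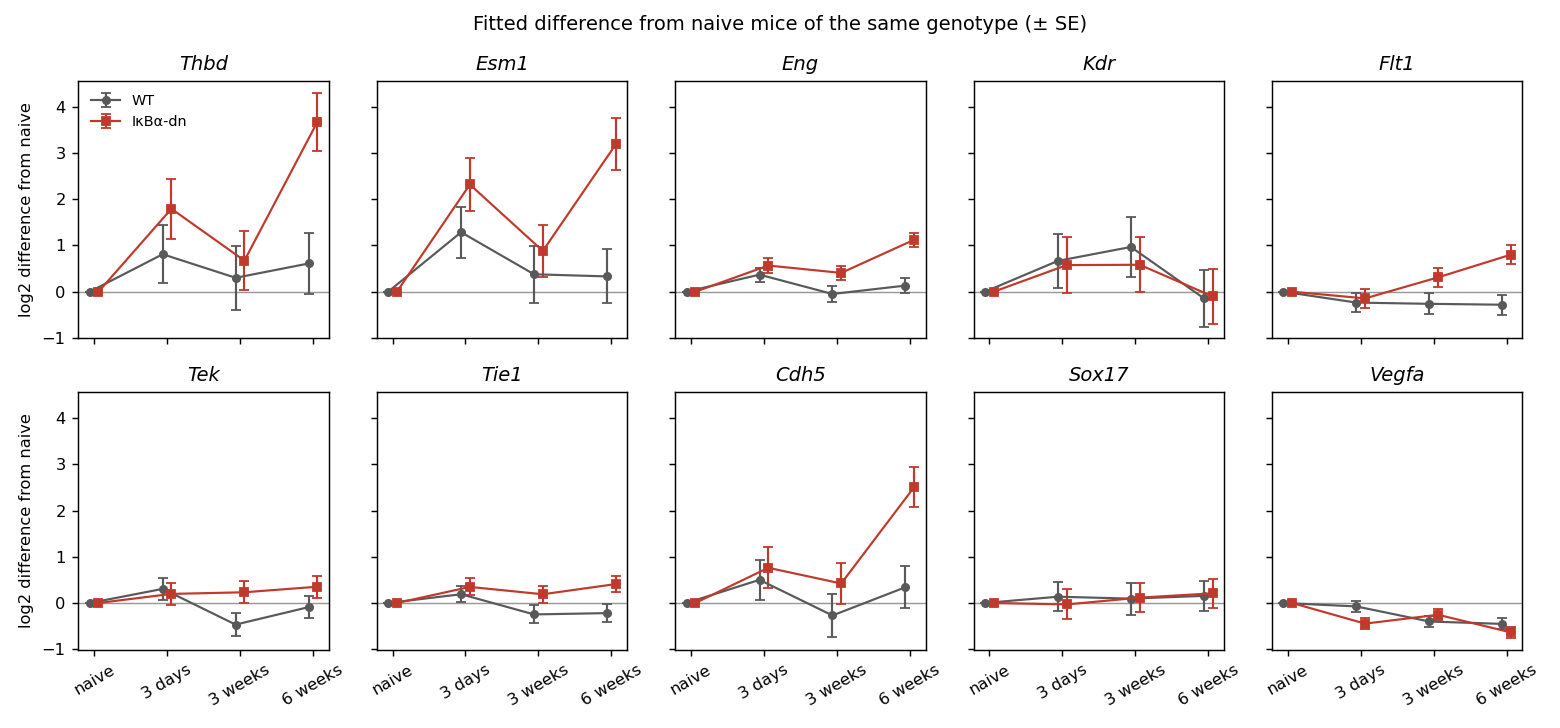
Fitted log2 difference from naïve mice of the same genotype at 3 days, 3 weeks and 6 weeks (± SE), WT in grey and IκBα-dn in red, with lines joining the estimates. In IκBα-dn mice Esm1 stands at 2.32 at 3 days, 0.88 at 3 weeks and 3.19 at 6 weeks, while Vegfa lies below 0 at all 3 times in both genotypes.

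At 6 weeks, of the 8 genes other than Thbd and Esm1, 3 were higher in IκBα-dn mice than in naïve mice of the genotype, where 11.5% of all features were called higher, and 1 was lower, where 14.2% were called lower. The same IκBα-dn mice enter this comparison and the one between genotypes, and the genes were chosen with earlier results of these data known. The p-values of this comparison are therefore not independent of that choice. Thbd and Esm1, for which no test is given, read 3.78 and 3.54 on the array of 6-week mouse 1 over naïve mouse 3 and 3.67 ± 0.63 and 3.19 ± 0.56 in the fit (4.55 ± 0.57 and 4.02 ± 0.49 without 6-week mouse 3). Cdh5 rose by 2.51 ± 0.43 (adjusted p = 3.9e-04, limma), with 3.01 on that array. Eng rose by 1.12 ± 0.16 (adjusted p = 5.5e-05), with 1.42, and Flt1 by 0.80 ± 0.21 (adjusted p = 0.0087), with 1.03. Vegfa fell by 0.64 ± 0.12 (adjusted p = 6.0e-04), with -0.65, and all 12 of its features were called lower. Without 6-week mouse 3 Cdh5 was 3.10 ± 0.38, Eng 1.23 ± 0.17, Flt1 0.81 ± 0.25 and Vegfa -0.73 ± 0.13, each still called.

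Tie1 and Tek stood at 0.41 ± 0.18 (adjusted p = 0.11) and 0.35 ± 0.23 (adjusted p = 0.32; without 6-week mouse 3 Tek was called, at 0.69 ± 0.19, adjusted p = 0.017), and Sox17 at 0.21 ± 0.32 (adjusted p = 0.71). Kdr was -0.10 ± 0.59 on its clone feature, but all 10 features of its mRNA were called higher, between 0.64 and 1.21. The 6-week mice did not read alike over 3-day and 3-week mice. Over 3-day mouse 3, 6-week mouse 2 read 3.31 for Thbd and 2.43 for Esm1, and over 3-week mouse 3, 6-week mouse 3 read 1.32 and 0.68.

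Whether the genotype difference itself moved after injury was tested for the first 2 times. From naïve to 3 days 0 of 10 genes and 0% of features passed (1 gene and 1398 features at an unadjusted p under 0.05, limma), and from naïve to 3 weeks 0 of 10 and 0% (3 genes and 588 features). The largest shifts to 3 days were 1.03 ± 0.69 for Esm1 and 0.98 ± 0.78 for Thbd, and the Vegfa shift was -0.37 ± 0.14 (95% interval -0.68 to -0.07, adjusted p = 1.00). To 3 weeks, Tek shifted by 0.70 ± 0.30 and Flt1 by 0.57 ± 0.27. From naïve to 6 weeks, as a description, the shifts were 3.06 ± 0.74 for Thbd, 2.86 ± 0.66 for Esm1, 2.17 ± 0.51 for Cdh5, 1.08 ± 0.25 for Flt1 and 0.99 ± 0.18 for Eng. Without naïve WT mouse 2 the shifts of Thbd, Esm1 and Cdh5 were 2.32 ± 0.70, 2.25 ± 0.64 and 1.66 ± 0.47, and without 6-week IκBα-dn mouse 3 they were 3.79 ± 0.63, 3.48 ± 0.55 and 2.70 ± 0.43.

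The partners of these genes did not all move with them at 6 weeks. Among angiopoietin-Tie partners 3 of 6 were higher and 1 lower in IκBα-dn than WT mice, with a median difference of 0.81 against 0.05 over all 19087 genes, of which 8.59% were higher and 10.9% lower. Ptprb, the phosphatase VE-PTP that acts on TIE2 and VE-cadherin, was 1.24 ± 0.22, and Svep1, an extracellular protein that binds TIE1, 1.58 ± 0.32, while Angpt4, an angiopoietin, was -0.61 ± 0.17 (adjusted p = 0.0011, 0.0026 and 0.019, limma). Of 7 VEGF ligands and co-receptors other than the members 2 were higher, the co-receptor Nrp2 at 0.46 ± 0.13 (adjusted p = 0.016) and the ligand Vegfd at 0.61 ± 0.18 (adjusted p = 0.026), and none lower; Pgf, a ligand of the Flt1 receptor, was lowest at -0.30 ± 0.13.

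Among 13 genes of the endoglin complex and of BMP9 signalling 2 were higher and none lower, where 7.74% of all features were called higher and 11.9% lower. They were Id1, a target gene, at 0.88 ± 0.15 and Smad6, an inhibitory SMAD, at 0.72 ± 0.14, and the list median was 0.08. Of 12 junction partners of VE-cadherin 1 was higher, the adhesion molecule Esam at 0.77 ± 0.13, and the tight junction gene Cldn5 was 0.51 ± 0.19 (adjusted p = 0.074). Of 20 endothelial transcription factors 10 were higher and 1 lower, with a median of 0.35: Fli1, an ETS factor, was 1.31 ± 0.16, Klf4 was 1.13 ± 0.16, Foxc1 was 1.63 ± 0.42 and Ets2 was -0.68 ± 0.10.

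Around thrombomodulin, 2 of 17 haemostasis genes were higher and 1 lower, where 7.74% of all features were called higher and 11.9% lower. Counts near these shares, here and for the other lists, are not read as results about a list. Procr, the endothelial receptor that presents protein C to the thrombin-thrombomodulin complex, was 1.14 ± 0.24, Serpind1, a thrombin inhibitor, 0.69 ± 0.16, and F2rl2, a thrombin receptor, -0.67 ± 0.19. In IκBα-dn mice Procr was higher at 3 days than in naïve mice, by 1.62 ± 0.28 (adjusted p = 0.0022, limma). In WT mice the same difference was 1.03 ± 0.27 (adjusted p = 0.063). Of 25 tip cell and Notch genes, the setting in which Esm1 is a marker, 4 were higher and 3 lower, with the basement membrane genes Nid1 and Nid2 at 1.35 ± 0.26 and 1.61 ± 0.31 and the Notch feedback gene Nrarp at -1.19 ± 0.19.

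Of 13 genes of leukocyte adhesion on activated endothelium 3 were higher and 1 lower at 6 weeks, where 7.74% of all features were called higher and 11.9% lower. Among them were Icam2 at 0.87 ± 0.19, Cd44 at 1.17 ± 0.26 and Ackr1, a chemokine receptor of venules, at -0.47 ± 0.10. At 3 days 7 of these 13 were higher in IκBα-dn mice than in naïve mice, where 5.39% of all genes were, led by the chemokine Ccl2 at 2.87 ± 0.41. In the same comparison 11 of 17 microglia and macrophage markers were higher, with Adgre1 at 3.11 ± 0.45 and Ptprc at 2.85 ± 0.41, and their part in the adhesion list, whose Ccl2 and Cd44 leukocytes also express, was not tested. Selp, P-selectin, was -0.10 ± 0.27. At 3 days Ccl2, Cd44 and Adgre1 were above naïve in WT mice too. They stood at 2.25 ± 0.40, 1.22 ± 0.29 and 2.41 ± 0.44 (adjusted p = 0.024, 0.046 and 0.024, limma). Between the genotypes 0% of all features were called at 3 days. Of 19 hypoxia genes 2 were higher and 2 lower between the genotypes at 6 weeks, with Pdk1 at 0.40 ± 0.12 and the mitophagy gene Bnip3 at -0.50 ± 0.11 (adjusted p = 0.024 and 0.0058). At 3 days in IκBα-dn mice the hypoxia genes went both ways from naïve. Hk2, a glycolytic enzyme, was the highest at 1.21 ± 0.28 and Ndrg1 the lowest at -0.40 ± 0.16 (adjusted p = 0.017 and 0.18, limma). Hif1a was 0.71 ± 0.16 above naïve (adjusted p = 0.015). Of all features 5.08% were called higher and 1.22% lower in that comparison, and a link of these genes to Vegfa was not tested. In WT mice at 3 days Hk2, Ndrg1 and Hif1a had the same signs. They stood at 0.78 ± 0.28, -0.28 ± 0.16 and 0.60 ± 0.16 (adjusted p = 0.16, 0.42 and 0.065, limma).

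Markers of several cell types differed between the genotypes at 6 weeks, as did the set; the ratios do not tell how much RNA of a cell type was present. Over all features 7.74% were called higher and 11.9% lower in this comparison. Of 19 endothelial markers 6 were higher and none lower at 6 weeks, with a median of 0.35 and a range from -0.03 for Vwf to 1.24 for Ptprb. Of 14 pericyte and mural markers 8 were higher and none lower (median 0.59), with Pdgfrb, the pericyte receptor for PDGF-B, at 1.16 ± 0.19, and of 19 markers of meningeal and perivascular fibroblasts 6 were higher and none lower (median 0.63), led by Fbln1 at 1.42 ± 0.19. Of 17 neuronal markers 10 were lower and none higher (median -0.68). Of 11 astrocyte markers, the cells the transgene is directed to, 1 was higher and none lower (median -0.04), and of 8 platelet and erythroid markers, as a sign of blood in the tissue, 3 were higher and none lower (median 0.52). Of 17 microglia and macrophage markers 3 were higher and none lower (median 0.32), with Ptprc at 1.17 ± 0.35, of 10 neutrophil and monocyte markers 3 were higher and 1 lower, with S100a8 at 2.19 ± 0.72, and of 10 lymphocyte markers 2 were higher and none lower. Of 6 lymphatic markers 1 was higher, Lyve1 at 1.71 ± 0.58.

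The median log2 ratio of the fibroblast markers at 6 weeks was 1.48, 1.29 and -0.22 on the 3 arrays, in the order given for Thbd above, and in naïve mice it was 0.02, -0.73 and 0.12. The endothelial medians were 0.49, 0.45 and 0.02 at 6 weeks, and the neuronal medians, -0.63, -0.78 and -0.90, did not share the high and low arrays. On the array where the fibroblast markers were at -0.22, Esm1 read 0.83, Thbd 0.64, Eng 0.41, Cdh5 0.40, Tie1 0.02 and Tek -0.44. The part of fibroblast, mural, immune or blood content in the values of the 10 genes was not tested.

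**Figure D4:**
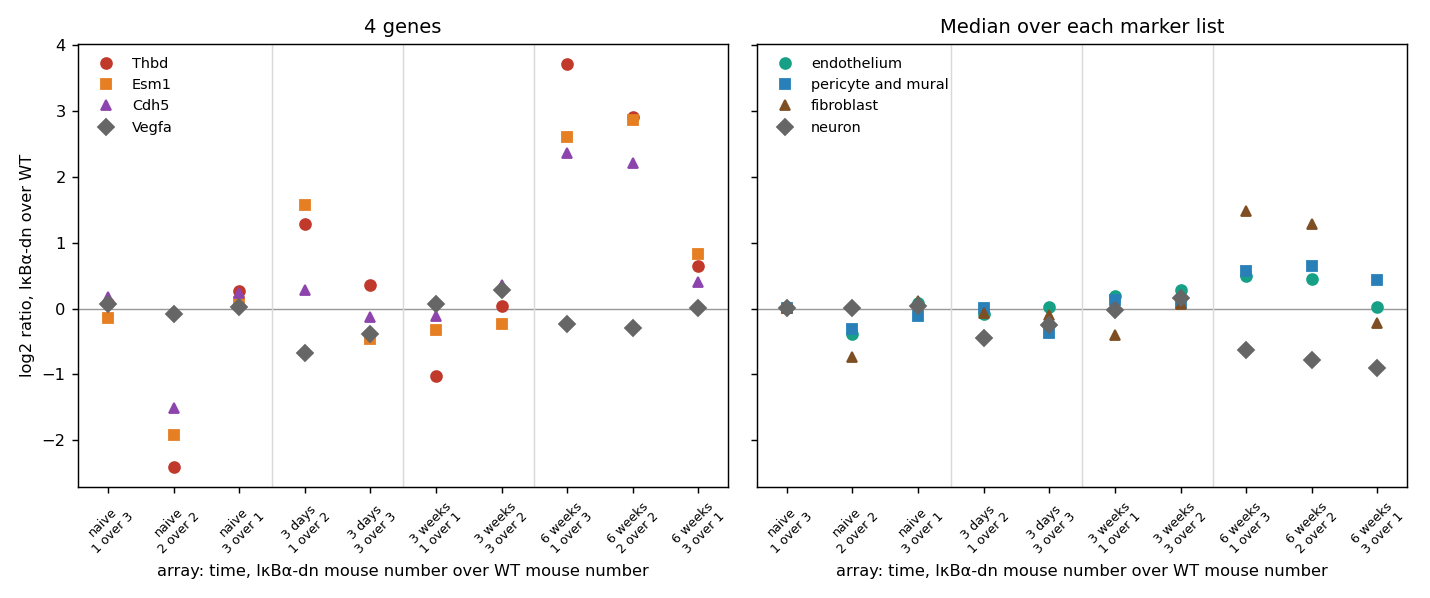
Log2 ratio of IκBα-dn over WT on each of the 10 arrays that compare the genotypes, for Thbd, Esm1, Cdh5 and Vegfa (left) and as the median over endothelial, mural, fibroblast and neuronal marker lists (right). The second naïve array is low and the first pair of 6-week arrays high for Thbd, Esm1, Cdh5 and the fibroblast markers, whose medians there are -0.73, 1.48 and 1.29.

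Over all 21 arrays, which share mice and so are not independent, several of the genes had like profiles. Those arrays include the ones of the contrast by which the set was chosen, where Thbd, Esm1 and Cdh5 differed most between the genotypes. The arrays described above as standing apart are also among them. The correlations here and in the next paragraph are therefore descriptions of these arrays. Whether the genes stay alike without such arrays was not tested. The correlation of log2 ratios was 0.96 between Thbd and Cdh5, 0.95 between Thbd and Esm1 and 0.94 between Eng and Cdh5, while the median over the 45 pairs of the set was 0.13 and the lowest value -0.64, between Thbd and Vegfa. Kdr by its mRNA features had a correlation of 0.93 with Cdh5 and 0.94 with Eng, and by its clone feature -0.14 with Cdh5. Cdh5 had a correlation of 0.90 with the median of the endothelial markers, 0.89 with that of the mural markers and 0.89 with that of the fibroblast markers. In the same order Thbd had 0.85, 0.82 and 0.88, highest with the fibroblast markers, and Esm1 0.86, 0.81 and 0.75. Eng had 0.91, 0.92 and 0.76 and Flt1 0.64, 0.83 and 0.64, both highest with the mural markers. Tie1, at 0.87, 0.68 and 0.55, and Tek, at 0.80, 0.50 and 0.52, were highest with the endothelial markers. For Thbd and Esm1 the correlation with the median of microglia and macrophage markers was 0.59 and 0.64. Vegfa followed another course, at 0.70 with the neuronal median and -0.83 with that of microglia and macrophages.

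Among all other genes on the arrays, those most like Thbd were Cdh5, Mgp and Col5a1 (r = 0.96 each over 21 arrays), those most like Cdh5 were Cavin2, Col18a1 and Thbd (0.97, 0.96 and 0.96), and those most like Esm1 were Ppic, Col5a1 and Serpinb6b (0.95 each). Mgp encodes matrix Gla protein, Col5a1 a fibrillar collagen, Cavin2 a coat protein of caveolae and Col18a1 the basement membrane collagen from which endostatin is cut.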

How the data were processed

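Spinal cord RNA of 23 mice was measured on 2-colour Agilent Whole Mouse Genome arrays. The deposited values are log2 ratios of Cy5 over Cy3, which the authors normalised by lowess within arrays and by quantiles between arrays in limma (version not given in the sources used here). Signal intensities were not used here, so dim probes could not be filtered, and the number of arrays limits the precision. Of 43379 features, 33653 have 1 gene symbol, 56 several and 9670 none.

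The 21 ratios were fitted with limma 3.58.1 in R 4.3.3 on 8 group terms and a dye term. A mouse shared by arrays took 0.45 of the variance, with 16.2 degrees of freedom in all. Adjusted p-values are Benjamini-Hochberg over all features of a comparison, and a feature was called at an adjusted p under 0.05. The feature of lowest number stands for a gene. The fit was tested on simulated data. Of each other list, the genes of smallest p and those at the ends of its range were named. Members and lists were chosen with earlier results of these data known. Alternatives changed the dye term, scaling, arrays, mice, features and threshold. Replicate mice of a group are separate animals by their labels, and p-values measure the spread between these samples.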

Additional observations from a re-analysis of the deposited data

Results flagged for a closer look

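In 5 cases every array of IκBα-dn over WT mice lay on one side of 0 at one time and on the other side at another; these differences between times were not tested, and each rests on 2 or 3 arrays a time. For Esm1 the mean log2 ratio was -0.28 at 3 weeks and 2.09 at 6 weeks, 2.37 apart. For Flt1 it was -0.34 at 3 days, against 0.27 at 3 weeks, 0.61 apart, and against 0.67 at 6 weeks, 1.01 apart. For Sox17 it was -0.15 at 3 days and 0.43 at 6 weeks, 0.58 apart. For Vegfa it was -0.53 at 3 days and 0.18 at 3 weeks, 0.71 apart. The 6-week values belong to the contrast by which the set was chosen.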

How the results depend on the processing

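Counts of called genes and log2 differences of the 10 genes were recomputed under up to 39 alternatives; the cause of the changes was not tested. Between genotypes at 6 weeks, 6 genes were called; 1 was without the arrays holding both genotypes at 6 weeks, 0 under the strictest rule (a fold over 2 at an FDR of 0.1%), and 2 to 7 with 1 mouse left out, the 2 without IκBα-dn mouse 1 or WT mouse 2 at 6 weeks. In WT mice at 3 days 0 became 2 without 2 mice together, naïve WT mouse 2 and 6-week IκBα-dn mouse 3. In WT mice at 6 weeks 0 became 1 when the unused array was taken to hold a 3-week mouse, with the mean of all features and with that of RefSeq features (chosen after seeing the data), and was 0 to 1 with 1 mouse left out (1 without 3-day WT mouse 2). In IκBα-dn mice at 3 days 3 became 1 with no dye term, with arrays scaled to one spread or without the 6-week arrays of both genotypes, 0 with a dye term for each array code or at an FDR under 1% or under 0.1% with the fold, and 0 to 3 with 1 mouse left out. It was 0 without 3-day mouse 1 or 2, 3-week mouse 2, 6-week mouse 1, any naïve mouse (all IκBα-dn) or 3-day WT mouse 1, and 1 without 3-week IκBα-dn mouse 1, 3-day WT mouse 3, 6-week WT mouse 2 or naïve WT mouse 1 or 3. Equal replicate numbers name different mice, and the numbers were not taken as pairs. The fitted deviations of 77 pairs of equal number had a median correlation of -0.01 (0.03 for 154 other pairs). The 68 pairs of equal number on no shared array had a median of 0.02. Single pairs of equal number ranged from -1 to 0.44, so these medians cannot exclude an effect of the replicate number. With the replicate block the 3-day count in IκBα-dn mice was 0.

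Between genotypes at 6 weeks, 37 alternatives kept the sign of every gene other than Kdr and Sox17. Cdh5 was called in 34 of them, Eng in 36, Flt1 in 37, Tie1 in 27 and Tek in 2. The rule that chose the set used this contrast, and nothing is read from these counts. Without the 6-week arrays of both genotypes Sox17 was -1.09 ± 0.38 and Kdr -0.83 ± 0.94, and with 1 mouse left out Kdr ranged from -0.18 to 0.52. Directions also turned at 3 days against naïve. In WT mice Flt1 was 0.050 with the mean of all features and 0.012 with that of RefSeq features, and with 1 mouse left out Flt1 ranged from -0.50 to 0.066, Kdr from -0.38 to 1.22 and Sox17 from -0.16 to 0.29. In IκBα-dn mice Tek was -0.076 with a dye term for each array code, Flt1 ranged from -0.32 to 0.057 with 1 mouse left out, and Sox17 was 0.060 with no dye term, 0.041 with the replicate block, 0.014 with centred arrays, 0.0093 without the 6-week arrays of both genotypes, 0.093 with the RefSeq mean, 0.073 without the 2 mice, and -0.33 to 0.11 with 1 mouse left out. The number of features called ranged from 548 to 10816 between genotypes at 6 weeks (8539 as reported), 260 to 3662 in IκBα-dn mice at 3 days, 2203 to 12042 at 6 weeks, and 0 to 2799 in WT mice at 3 days.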

Other observations

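The array whose labels disagree set a WT mouse at 6 weeks over a WT mouse at 3 days or 3 weeks. With the dye effect removed its log2 ratio was 0.42 for Thbd, 0.19 for Esm1, 0.19 for Cdh5, -0.08 for Eng, 0.19 for Flt1 and -0.21 for Vegfa.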
